A study of Drosophila melanogaster with 18 samples.

Results

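Ovaries carrying ada2b mutant germline clones were compared with the FRT control ovaries of the same experiment, gene by gene, and the changed genes were then read by function and by tissue. The deposited table lists 15682 genes, of which 7674 had a mean of at least 1 RPKM (reads per kilobase of gene, scaled to the size of the library) over the 6 libraries and were tested. The ada2b group held 3 libraries of genotype ada2b, and the FRT group held 3 libraries whose genotype is labelled wt, each library from a separate biological sample. Flies of both groups were grown at 25 °C, heat shocked as larvae at 37 °C for 2 hr on each of 2 days to induce clones, and given yeast for 2 to 3 days before the ovaries were dissected. Poly(A) RNA was sequenced with a strand-specific kit. The labels give neither the allele nor the age or number of females, and a germline clone leaves the somatic cells of the ovary with a genotype that the labels do not state. The series holds 2 more experiments of the same layout, labelled ataxin7 and nonstop, each with 3 mutant and 3 FRT libraries of its own, and these served only to test whether a change differed from theirs.

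Ada2b is the adaptor that ties the acetyltransferase Gcn5 into SAGA, a coactivator complex that acetylates histone H3 and, through a separate module, removes ubiquitin from histone H2B. A fly ovary is a set of strings of egg chambers of increasing age, in which germline nurse cells fill the oocyte with maternal RNA and protein while a surrounding layer of somatic follicle cells makes yolk protein, then the vitelline membrane and, last, the chorion. The strings lie in a muscle sheath, and fat body, blood cells and oviduct can come along in a dissection. Bulk RNA cannot separate fewer cells of a type from less RNA per cell, and that holds for every tissue named here.

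Reads on genes numbered 22608405 to 39513812 per library in the ada2b group and 34199331 to 42018395 in the FRT group. A single library stood apart. In ada2b replicate 1, the shallowest, 26% of reads fell on mitochondrial genes, against 8.92% and 12.4% in the other ada2b libraries and 6.96% to 8.79% in the FRT libraries. Its log2 values correlated at 0.965 and 0.966 with those of the other ada2b libraries (Pearson, across genes, which are not independent), while those libraries correlated at 0.986 with each other and the FRT libraries at 0.994 with one another. Counts are therefore also given without it.

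The mutated gene came first. Ada2b (FBgn0037555, chromosome arm 3R) was at 6.17, 7.80 and 8.75 RPKM in the ada2b libraries, against 45.4, 44.4 and 46.5 RPKM in the FRT libraries, so the libraries matched their labels. The log2 fold change was -2.45 (standard error, SE, 0.12, adjusted p = 2.75e-05 in limma). Ada2b overlaps PolI on the opposite strand, and since the strand setting of the counting is not stated, its value is uncertain to that extent. The tissue label was borne out too, as the yolk protein gene Yp1, the vitelline membrane gene Vm26Aa and the germline gene osk were at 92.5 RPKM or more in every library of both groups.

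Most tested genes differed. Of the 7674 genes, 5209 (67.9%) passed the threshold of 0.05 on the adjusted p of limma, run on log2(RPKM + 1), with 1962 (25.6%) higher and 3247 (42.3%) lower in ada2b ovaries. A change of at least 2-fold on that scale was called for 662 genes higher (8.63%) and 759 lower (9.89%). The values of the 3 ada2b and 3 FRT libraries did not overlap for 5851 genes (76.2%). An exact permutation test of 3 libraries against 3 cannot go below p = 0.1, so calls rest on the spread that limma pools over genes. The split between higher and lower depended on the scaling. Over all 7674 genes the log2 fold change had a median of -0.13, and 37.7% of the called genes were higher. With every library scaled to a common median the median change was 0.11 and 58.8% of calls were higher, and after quantile normalization these were -0.01 and 47.7%. Without ada2b replicate 1, 5556 genes were called, 5109 of them also called in the same direction with all 6 libraries.

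Low genes leaned upward. Of the 1919 genes in the lowest of 4 equal bins by FRT level, 897 (46.7%) were called higher and 418 (21.8%) lower, while in the highest bin 316 were called higher and 986 lower. A share of this follows from the filter, since 389 genes passed it with an FRT mean under 1 RPKM and could hardly do so without being higher in ada2b (329 were called higher), and 111 passed with an ada2b mean under 1 RPKM (100 were called lower). For the remaining 7174 genes, with both means at 1 RPKM or more, 1633 were called higher and 3147 lower. The plot of all tested genes shows the cloud and the groups that left it. Of the further genes named, yellow-g, cort, Rpn7, Orc2, twe, PolD1, Eno, mei-218, exu, pgc, otu, moon, dec, osk, zpg, grk, Yp1, sad, spo, Lsp2, Lsd-1, not, Hsp27, Cyp6a19 and Obp44a overlap a gene on the opposite strand, and mtrm, Vm32E, chif, yl, osk, Fib and Act57B overlap or hold a gene on their own strand, so their reads may be shared with those neighbours.

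**Figure D1:**
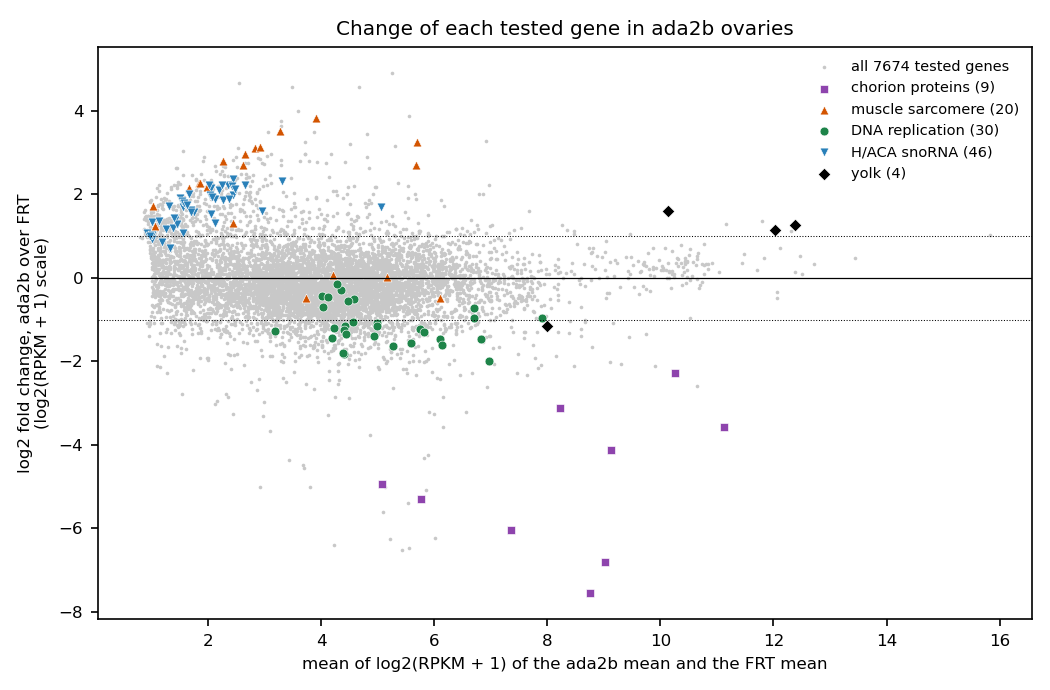
Each grey point is a tested gene, with its mean level on the x axis (mean of log2(RPKM + 1) of both groups) and its log2 fold change of ada2b over FRT on the y axis, and coloured points mark 5 gene lists. The 9 chorion genes lie lowest, between -2.28 and -7.55, the muscle and H/ACA snoRNA genes lie high at low mean levels, and dotted lines mark a 2-fold change.

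Eggshell genes changed most. The chorion is the outer eggshell, and its 9 protein genes sit in clusters on X and on 3L that follicle cells amplify late in oogenesis. All 9 were called lower, also without ada2b replicate 1, with a median log2 fold change of -4.93 beside -0.13 for all tested genes. Their summed level was 963, 1248 and 2830 RPKM in the ada2b libraries, against 20076, 22644 and 21753 RPKM in the FRT libraries. The 5 genes of the X cluster had log2 fold changes of -4.93 to -7.55 and the 4 genes of the 3L cluster of -2.28 to -4.12, so the ranges of the clusters did not meet.

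Cp38 and Cp36, major chorion proteins of the X cluster, had the largest falls of all 7674 genes. Cp38 was at 12.1, 3.63 and 130 RPKM in ada2b ovaries, against 3804, 3455 and 3948 RPKM in FRT ovaries, a log2 fold change of -7.55 (SE 1.11, adjusted p = 0.00114 in limma). The ada2b libraries were all far below the FRT libraries but spread widely, with replicate 3 highest and replicate 2 lowest, and the same order held for Cp36, Cp7Fb and Cp7Fc. Cp36, Cp38, Cp7Fb and Cp7Fc overlap CG33223 on the opposite strand. In the 3L cluster, Cp15 kept more of its RNA, at 525, 502 and 951 RPKM in ada2b ovaries against 7087, 7894 and 7604 RPKM in FRT ovaries (log2 fold change -3.57, adjusted p = 6.98e-05 in limma). Cp18, named for having the smallest fall of the 9, was at 320, 538 and 879 RPKM in ada2b ovaries and 2469, 3084 and 2274 RPKM in FRT ovaries.

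Genes that harden or complete the shell followed. Of 10 tested genes on the eggshell maturation list, 7 were called lower and none higher, with a median of -1.61. yellow-g2 and yellow-g, relatives of the pigment gene yellow that act in the eggshell, fell by 6.52 and 5.61 on the log2 scale. yellow-g2 was at 1.22, 0.388 and 12.6 RPKM in ada2b ovaries, against 313, 298 and 346 RPKM in FRT ovaries, with no overlap. Pxt, a peroxidase needed in follicles, was at 88.0, 115.4 and 115.8 RPKM in ada2b ovaries, against 445, 519 and 472 RPKM in FRT ovaries (log2 fold change -2.17, adjusted p = 4.24e-05 in limma). For dec, a large eggshell organiser, the fall of 1.05 lost its call under the common median, after quantile normalization, without the filter, and without any 1 of the FRT libraries or ada2b replicate 3.

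The inner shell layer behaved otherwise. Of the 7 vitelline membrane genes, 2 were called lower, 5 were not called and none was called higher. Vm26Aa, a main component of that layer, was at 4810, 6231 and 5722 RPKM in ada2b ovaries and 4429, 4559 and 6218 RPKM in FRT ovaries, so the groups overlapped (log2 fold change 0.15, adjusted p = 0.491 in limma). Vm32E, whose protein moves on into the chorion layer, was at 139, 482 and 250 RPKM in ada2b ovaries, against 999, 980 and 1154 RPKM in FRT ovaries, a log2 fold change of -2.02 (adjusted p = 0.00469 in limma).

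Among the 12 genes that fell most, 6 were chorion or yellow genes (Cp38, Cp36, Cp7Fc, Cp7Fb, yellow-g2 and yellow-g). The others were CG11381, Muc4B, CG4009, CG13114, CG31928 and Obp19c, with log2 fold changes of -6.48, -6.40, -6.26, -6.22, -5.4 and -5.08. Muc4B, named as a mucin, was at 0.147, 0.269 and 3.27 RPKM in ada2b ovaries, against 144, 144 and 177 RPKM in FRT ovaries. Obp19c, named as an odorant-binding protein, was at 3.38, 0.706 and 37.3 RPKM in ada2b ovaries, against 241, 222 and 203 RPKM in FRT ovaries. All 12 had their highest ada2b value in replicate 3, as the plot by library shows, and in no case did the groups overlap.

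**Figure D2:**
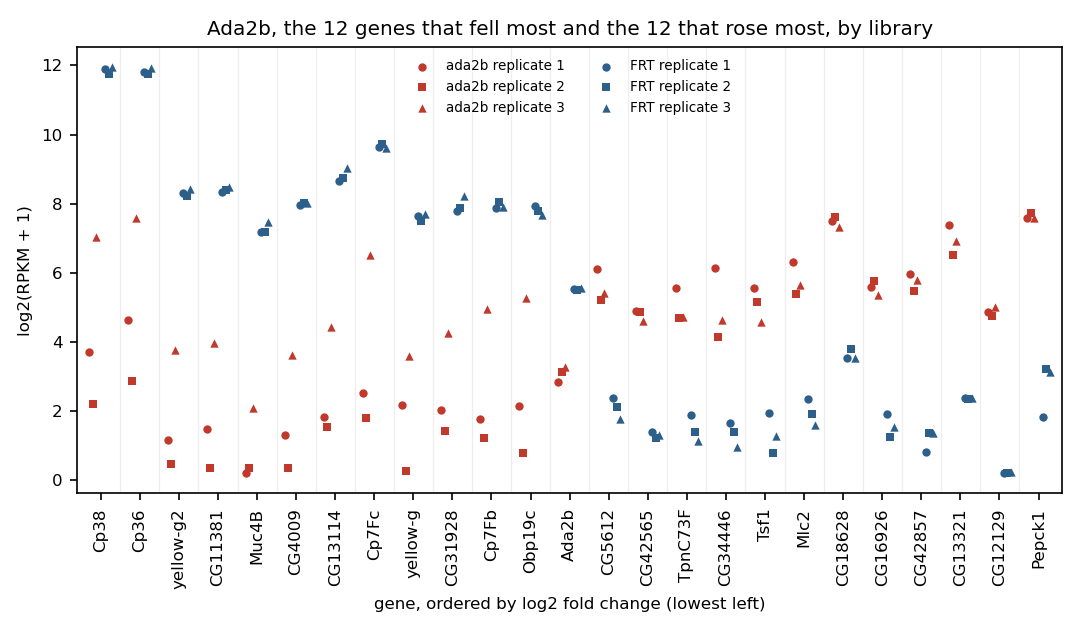
The y axis gives log2(RPKM + 1) in each library for Ada2b, the 12 genes that fell most (left) and the 12 that rose most (right), with ada2b libraries in red left of FRT libraries in blue and 1 symbol per replicate. Genes that fell show ada2b replicate 3 above the other ada2b libraries, while for genes that rose the ada2b libraries lie above all FRT libraries, as for CG12129 at 28.3, 26 and 31.0 RPKM in ada2b ovaries.

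Yolk protein genes were higher. The yolk proteins Yp1, Yp2 and Yp3, made by follicle cells and by fat body, were all called higher, with log2 fold changes of 1.14, 1.27 and 1.59. Yp2 was at 8022, 8238 and 8445 RPKM in ada2b ovaries, against 3365, 3134 and 3748 RPKM in FRT ovaries, with no overlap. The 10 fat body genes summed to 73.2, 51.5 and 48.0 RPKM in ada2b libraries, against 14.2, 16.5 and 17.5 RPKM in FRT libraries, and the part of fat body in the yolk protein values was not tested. The oocyte's yolk uptake receptor went the other way, as yl was at 137, 201 and 174 RPKM in ada2b ovaries, against 359, 397 and 365 RPKM in FRT ovaries (log2 fold change -1.14, adjusted p = 0.000555 in limma).

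Signalling genes of the follicle layer lay mostly at low FRT levels, where 46.7% of all tested genes were called higher and 21.8% lower, so their counts are given as a description. On the list of border cells and JAK/STAT signalling, 5 of 8 tested genes were called higher and none lower, or 4 of the 7 with both group means at 1 RPKM or more. slbo, the transcription factor that drives border cell migration, was at 2.94, 3.38 and 2.12 RPKM in ada2b ovaries, against 0.627, 0.581 and 0.682 RPKM in FRT ovaries (log2 fold change 1.21, adjusted p = 0.000432 in limma), and it passed the filter only through the ada2b libraries. Of 6 genes of EGFR patterning, 4 were called higher (3 of the 5 with both means at 1 RPKM or more), among them grk, the germline ligand, at 0.79, and kek1, a follicle cell target and inhibitor of the receptor, at 0.99. Of 9 genes of Notch signalling and the endocycle switch, 5 were called higher and 2 lower, or 4 and 2 of the 8 with both means at 1 RPKM or more. The ecdysone enzymes spo and sad rose by 1.6 and 1.57, and 4 of the 8 tested genes on that list were called higher and 3 lower. Of the 5 with both means at 1 RPKM or more, 2 were called higher and 2 lower.

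Maternal genes that act at the end of oogenesis were lower. The 8 egg activation genes, which complete meiosis and switch maternal RNA to translation or decay, were all called lower, with a median of -1.49. cort, a meiosis-specific activator of the anaphase-promoting complex, was at 6.43, 7.37 and 7.4 RPKM in ada2b ovaries, against 36.4, 37.6 and 37.0 RPKM in FRT ovaries (log2 fold change -2.24, standard error 0.07, adjusted p = 1.50e-05 in limma). wisp, the cytoplasmic poly(A) polymerase of the oocyte, was at 27.4, 51.2 and 44.1 RPKM in ada2b ovaries, against 149, 152 and 169 RPKM in FRT ovaries. The call of gnu, a subunit of the PNG kinase, was the least stable of those named, with -0.64 in the comparison of all 6 libraries and no call under the common median, where 6 of the 8 genes were called, or without any 1 of the FRT libraries or ada2b replicate 3.

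Other oocyte genes fell by similar amounts. mtrm, the inhibitor of Polo kinase in the oocyte, was at 78.1, 75.4 and 82.2 RPKM in ada2b ovaries, against 369, 410 and 379 RPKM in FRT ovaries (log2 fold change -2.28, adjusted p = 1.50e-05 in limma). CycB3 and twe, a meiotic cyclin and the meiotic Cdc25 phosphatase, fell by 1.99 and 1.81. BigH1, the embryonic linker histone that the mother supplies, fell by 1.82, and the maternal tubulins gammaTub37C and alphaTub67C fell by 2.27 and 1.29. For each of these the ada2b values lay below all FRT values.

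Germ plasm genes were called lower about as often as all genes, and genes of mRNA transport and meiotic recombination more often. On the germ plasm list, 4 of 8 genes were called lower and none higher, beside 42.3% lower over all tested genes, with a median of -0.49. osk, which nucleates the germ plasm, was at 92.5, 114.8 and 106 RPKM in ada2b ovaries, against 184, 190 and 206 RPKM in FRT ovaries (log2 fold change -0.89, adjusted p = 0.000319 in limma), and pgc, which silences transcription in germ cell precursors, fell by 1.21. Of 11 genes for transport of bicoid, oskar and gurken mRNA, 7 were called lower, led by exu at -1.25, and 2 were called higher. Of 12 meiotic recombination genes, 9 were called lower and none higher, or 8 of the 11 with both means at 1 RPKM or more. mei-217 and mei-218, which share overlapping transcripts and so reads, were at -1.37 and -1.31. The 21 piRNA pathway genes split into 9 lower and 4 higher, with a median of -0.26 that became -0.002 under the common median, so no direction held for that list. moon and krimp, which act in piRNA transcription and in nuage, fell by 1.16 and 1.0.

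Germline markers did not all fall. On the list of germline stem cells and cysts, 2 of 8 tested genes were called higher and 4 lower, with a median of -0.24. Over all tested genes, 25.6% were called higher and 42.3% lower. Of the 7 with both means at 1 RPKM or more, 2 were called higher and 3 lower. zpg, the germline gap junction protein, was at 111, 124 and 117 RPKM in ada2b ovaries, against 83.0, 71.8 and 75.9 RPKM in FRT ovaries, a log2 fold change of 0.60 (adjusted p = 0.000627 in limma). otu, needed for cyst and nurse cell development, was at 34.8, 64.3 and 55.2 RPKM in ada2b ovaries, against 111, 108 and 123 RPKM in FRT ovaries (log2 fold change -1.18).

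Genes of DNA replication were lower almost throughout. Of 30 tested genes, 28 were called lower and none higher, 20 of them by at least 2-fold, with a median of -1.21 (29 lower without ada2b replicate 1, and 26 under the common median). Summed over the list, the level was 841, 941 and 982 RPKM in the ada2b libraries, against 2173, 2197 and 2112 RPKM in the FRT libraries. RnrL, the large subunit of ribonucleotide reductase, was at 50.4, 68.5 and 68.6 RPKM in ada2b ovaries, against 238, 257 and 249 RPKM in FRT ovaries (log2 fold change -1.99, adjusted p = 5.67e-05 in limma). Orc2 of the origin recognition complex and PolD1, the catalytic subunit of polymerase delta, fell by 1.81 and 1.8. PCNA, the sliding clamp and the member of the list with the highest RPKM, fell by 0.97.

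Cell cycle regulators showed 19 of 23 genes called lower and 1 higher, with a median of -1.05, beside 42.3% lower over all tested genes. Under the common median 14 were called lower and 4 higher. Besides mtrm, CycB3 and twe, the mitotic cyclin CycB was at 215, 221 and 268 RPKM in ada2b ovaries, against 488, 457 and 494 RPKM in FRT ovaries. Of 94 tested genes on the histone list, 85 were called lower and none higher, with a median of -1.01 (70 lower under the common median). An ada2b mean below 1 RPKM was found for 15 of the 94, which passed the filter only through the FRT libraries. Among the 79 with both means at 1 RPKM or more, 70 were called lower and none higher. Most genes on the list are near-identical copies of the replication histones, between which reads cannot be assigned with certainty. Their poly(A) RNA is a small share of their transcripts.

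**Figure D3:**
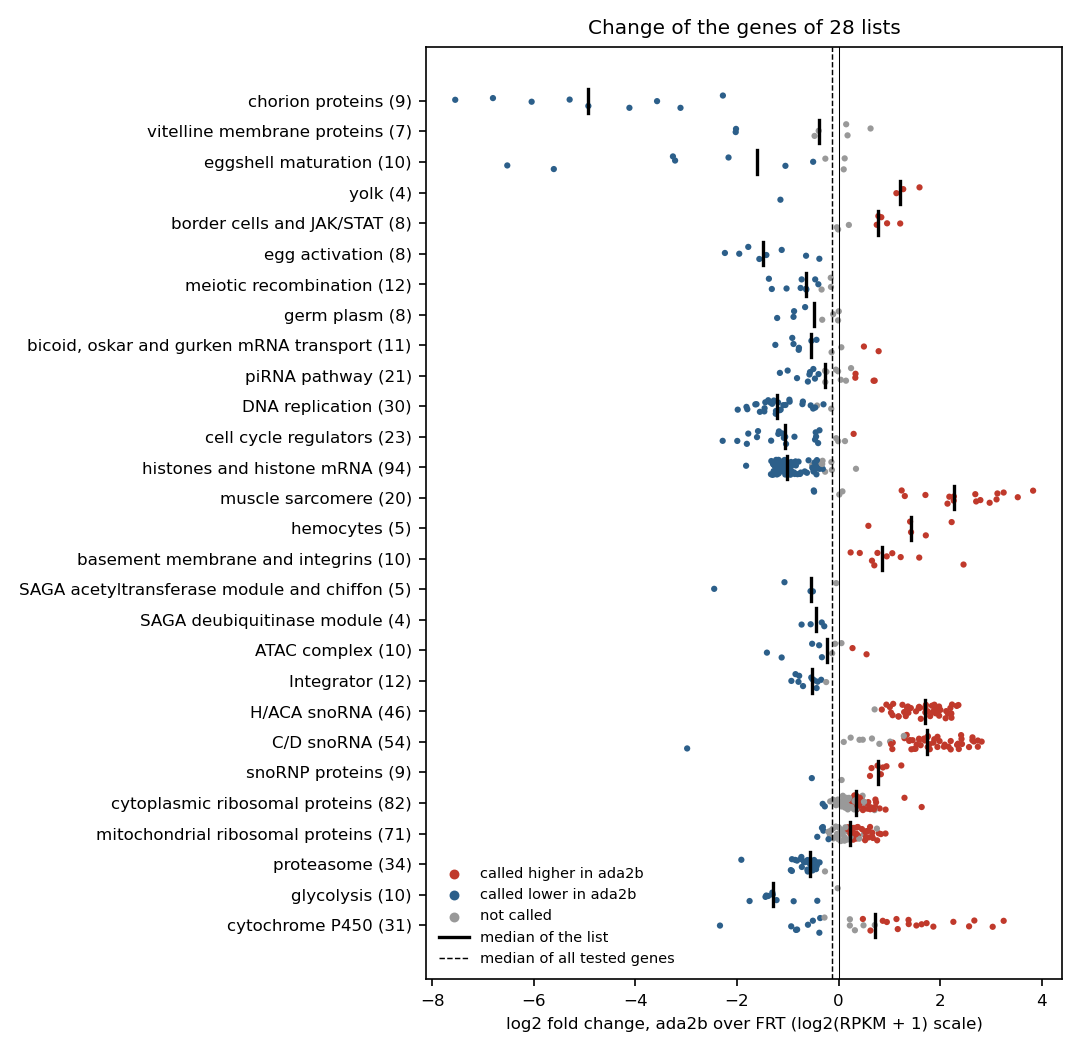
Each row is a gene list with the number of tested genes in parentheses, each point is a gene at its log2 fold change of ada2b over FRT (red called higher, blue called lower, grey not called), and black bars are list medians. The dashed line marks the median of all tested genes, -0.13. Chorion, replication and glycolysis genes lie left of it and muscle, basement membrane and snoRNA genes lie right of it.

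Muscle genes rose together. Of 20 sarcomere genes that passed the filter, of 29 in the table, 16 were called higher, all by at least 2-fold, and 2 lower, with a median of 2.27 (16 higher and a median of 1.99 without ada2b replicate 1). Of the 20, 7 averaged below 1 RPKM in FRT ovaries and passed only through the ada2b libraries, and 9 of the other 13 were called higher. Their summed level was 838, 492 and 559 RPKM in the ada2b libraries, against 207, 188 and 199 RPKM in the FRT libraries. Mlc2, the myosin regulatory light chain of muscle, was at 77.7, 40.7 and 49.2 RPKM in ada2b ovaries, against 4.06, 2.79 and 1.99 RPKM in FRT ovaries (log2 fold change 3.83, standard error 0.28, adjusted p = 7.80e-05 in limma). TpnC73F, a troponin C, rose by 3.53, Mp20, a muscle calponin, by 3.25 and Act57B, a muscle actin, by 2.69 on that scale. Replicate 1 was highest of the ada2b libraries for these genes, and all ada2b values lay above all FRT values. SERCA, a calcium pump of muscle and other cells picked here as an exception, fell by 0.49, a call that was lost under the common median.

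Markers of some other tissues, but not all, moved with the muscle genes, and the part of other tissues in the results was not tested. The 5 tested hemocyte genes, of 9 in the table, were called higher, but 4 of them averaged below 1 RPKM in FRT ovaries and passed only through the ada2b libraries. The list had a summed level of 120, 92.4 and 92.4 RPKM in ada2b libraries, against 57.4, 58.9 and 59.7 RPKM in FRT libraries. Most of that sum was crq, the 1 hemocyte gene with both means at 1 RPKM or more. It was at 99.5, 82.5 and 81.4 RPKM in ada2b ovaries, against 56.3, 58.2 and 59.2 RPKM in FRT ovaries (log2 fold change 0.59). It overlaps ex on the opposite strand. PPO2, a prophenoloxidase of crystal cells, was at 8.32, 3.35 and 3.58 RPKM in ada2b ovaries, against 0.376, 0.163 and 0.131 RPKM in FRT ovaries. Of 10 fat body genes, 3 were tested and 2 called higher, and their sum was higher in every ada2b library than in any FRT library, as given with the yolk proteins. Lsp2, a larval serum protein that defines fat body, was at 33.7, 4.77 and 10.1 RPKM in ada2b ovaries, against 2.74, 1.37 and 1.0 RPKM in FRT ovaries, and was not called without FRT replicate 3. The 2 tested genes of glia and trachea were called higher, 1 of them with an FRT mean below 1 RPKM. The 11 neuron genes and 12 testis genes had none at 1 RPKM on average, and summed to at most 1.20 and 2.36 RPKM in an ada2b library, against at most 0.357 and 0.173 RPKM in an FRT library. Of 43 midgut digestive enzymes, 3 were tested, and their sum was lower, at 41.6, 38.9 and 38.7 RPKM in ada2b libraries, against 165, 181 and 157 RPKM in FRT libraries, owing mostly to the maltase gene Mal-A5.

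Basement membrane and integrin genes, which sheath muscle, follicle cells and blood cells all express, rose without exception among the 10 tested. The median was 0.86, and all 10 remained called without ada2b replicate 1. Of these, 2 had an FRT mean below 1 RPKM. Ppn, a papilin of the extracellular matrix, was at 8.13, 6.42 and 5.66 RPKM in ada2b ovaries, against 0.560, 0.368 and 0.266 RPKM in FRT ovaries (log2 fold change 2.46, adjusted p = 4.52e-05 in limma). SPARC, a collagen chaperone, rose by 1.59, and Col4a1, a type IV collagen chain, was at 41.3, 66.1 and 46.8 RPKM in ada2b ovaries, against 22.9, 25.3 and 23.0 RPKM in FRT ovaries.

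**Figure D4:**
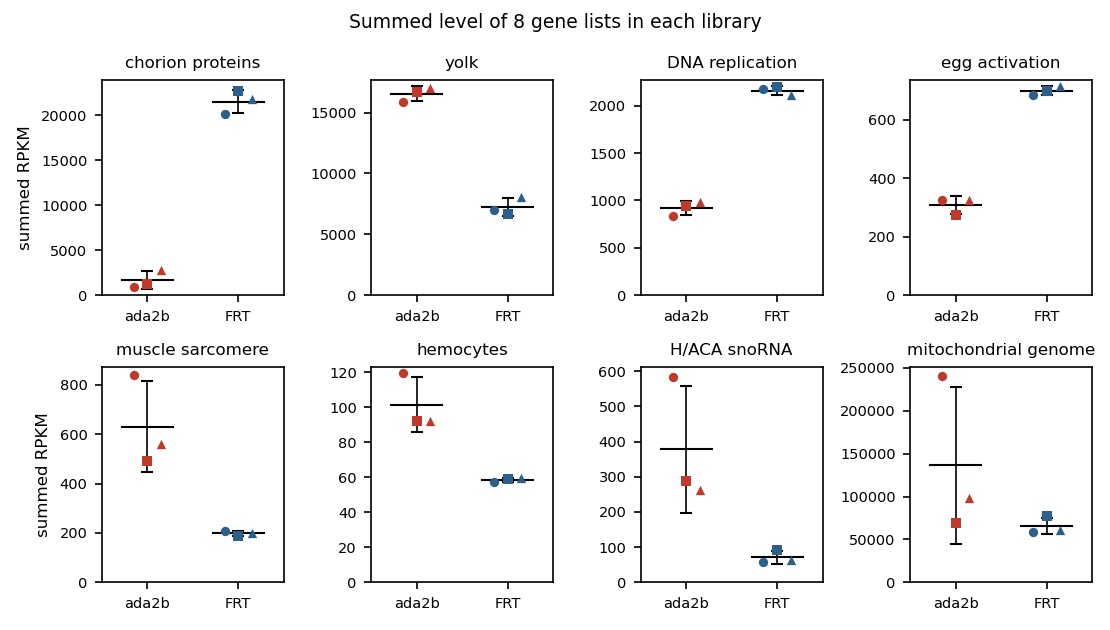
Each panel gives the summed RPKM of a gene list in each library, ada2b in red left of FRT in blue, with 1 symbol per replicate, a bar at the mean and the SD over 3 libraries. Chorion and replication sums are lower in every ada2b library, while for muscle, hemocyte, H/ACA snoRNA and mitochondrial genome sums ada2b replicate 1 (circle) is the highest library, and for the mitochondrial genome ada2b replicate 2 lies within the FRT range.

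Metabolic genes changed in both directions. Pepck1, phosphoenolpyruvate carboxykinase, the committed step of gluconeogenesis, rose most of all tested genes. It was at 190, 212 and 191 RPKM in ada2b ovaries, against 2.57, 8.36 and 7.69 RPKM in FRT ovaries, a log2 fold change of 4.91 (SE 0.35, adjusted p = 7.76e-05 in limma), and it overlaps CG45087 on the same strand. The rest of its list did not rise with it. Of the 5 tested genes of gluconeogenesis and trehalose, 1 was called higher, 1 lower and 3 were not called, with a median of 0.03. The lower one was PCB, at -1.01, which overlaps asRNA:CR44293 on the opposite strand. Glycolysis had 9 of 10 tested genes called lower and none higher, with a median of -1.30 and no change in that count without ada2b replicate 1. Pgi, glucose-6-phosphate isomerase, was at 25.8, 35.2 and 29.7 RPKM in ada2b ovaries, against 106, 98.6 and 106 RPKM in FRT ovaries. Eno, enolase, and Gapdh2, glyceraldehyde-3-phosphate dehydrogenase, fell by 1.44 and 1.42.

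Lipid genes were mixed, with 5 of 12 called higher and 4 lower, beside 25.6% and 42.3% of all tested genes, and a median of 0.12. Of the 2 members with the highest RPKM, Lsd-2 was not called (log2 fold change -0.05) and Mtpbeta was called lower (-0.87). Mtpbeta overlaps CG5569 on the opposite strand. The largest changes on the list were rises. The lipase gene Lip4 was at 89.6, 65.7 and 70.2 RPKM in ada2b ovaries, against 7.65, 11.0 and 9.31 RPKM in FRT ovaries (log2 fold change 2.88, adjusted p = 3.72e-05 in limma). Lsd-1, a perilipin that coats lipid droplets, was at 61.1, 53.7 and 50.3 RPKM in ada2b ovaries, against 7.44, 7.63 and 6.5 RPKM in FRT ovaries (log2 fold change 2.77). Lip4 and Lsd-1 were highest in ada2b replicate 1, and Pepck1 in replicate 2, with all ada2b values above all FRT values.

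Proteasome genes were lower and ribosomal protein genes leaned higher. Of 34 tested proteasome genes, 33 were called lower and none higher, with a median of -0.56 (30 lower and a median of -0.29 under the common median). Rpn7 of the regulatory lid fell by 1.91, to 97.1, 122 and 119 RPKM in ada2b ovaries, against 413, 420 and 444 RPKM in FRT ovaries. Cytoplasmic ribosomal protein genes had a median of 0.34, with 32 of 82 called higher and 2 lower, 24 higher without ada2b replicate 1 and 76 higher under the common median. Mitochondrial ribosomal protein genes had a median of 0.22, with 33 of 71 called higher and 6 lower, and 53 higher under the common median. Other genes of protein synthesis did not share that lean in the values as deposited. There, 7 of 35 translation initiation factors were called higher and 11 lower (median -0.05), and 3 of 16 tRNA synthetases higher and 8 lower (median -0.24). That depended on the scaling. Under the common median, 17 initiation factors were called higher and 1 lower (median 0.22), and 4 synthetases higher and 1 lower (median 0.02). Nuclear genes of oxidative phosphorylation had 7 of 64 called higher and 11 lower, close to no change at 0.04, though 41 were called higher and 1 lower under the common median. Over all 7674 tested genes, 1962 were called higher and 3247 lower, or 3071 higher and 2151 lower under the common median.

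Small nucleolar RNA genes rose as a class. Of 136 tested snoRNA genes, 118 were called higher and 3 lower, with a median of 1.71, and 107 of the 118 were also called without ada2b replicate 1, where the median was 1.38. H/ACA snoRNAs, which guide pseudouridylation, had 45 of 46 tested genes called higher, and C/D snoRNAs, which guide 2'-O-methylation, 45 of 54. Many passed the filter only through the ada2b libraries, with an FRT mean below 1 RPKM for 28 of the 46 and 26 of the 54. Of those with both means at 1 RPKM or more, 18 of 18 H/ACA and 22 of 28 C/D snoRNAs were called higher. Their levels were low and uneven, as the H/ACA list summed to 585, 287 and 262 RPKM in ada2b libraries, against 58.3, 92.1 and 63.7 RPKM in FRT libraries. snoRNA:Me28S-C2645c was at 27.5, 9.83 and 6.11 RPKM in ada2b ovaries, against 1.26, 0.995 and 0.390 RPKM in FRT ovaries, highest in replicate 1, the library rich in mitochondrial reads.

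Where the snoRNA reads come from bears on that value. Of the 136 genes, 129 lie inside another gene on the same strand in BDGP6.54, so reads of the surrounding transcript can be counted on them, and mature snoRNAs carry no poly(A) tail. The 46 tested genes that hold them had a median log2 fold change of 0.22, with 17 called higher and 3 lower. Among C/D snoRNAs, snoRNA:Me18S-C1968 went against the rest, at 1.39, 1.51 and 2.50 RPKM in ada2b ovaries, against 22.7, 26.1 and 15.2 RPKM in FRT ovaries. Proteins that bind snoRNAs rose too, with 7 of 9 called higher and 1 lower. NHP2, an H/ACA core protein, was at 224, 188 and 173 RPKM in ada2b ovaries, against 86.1, 81.1 and 78.1 RPKM in FRT ovaries (log2 fold change 1.24, adjusted p = 0.00013 in limma), and Fib, the C/D methyltransferase fibrillarin, rose by 0.87.

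The machinery around Ada2b changed modestly. Over all tested genes, 25.6% were called higher and 42.3% lower, and the counts for the SPT and TAF modules and for ATAC lay near those shares. Under the common median, 3071 of all 7674 genes were called higher and 2151 lower. In the acetyltransferase module with chiffon, 4 of 5 genes were called lower, Ada2b itself included. chif, whose product joins Gcn5 and Ada2b in a complex of its own, was at 10.2, 15.1 and 14.3 RPKM in ada2b ovaries, against 26.9, 28.3 and 29.9 RPKM in FRT ovaries, a log2 fold change of -1.07 (adjusted p = 0.000723 in limma). Gcn5 and Ada3, given to complete the module, had -0.51 (called) and -0.05 (not called, and above 0 under the common median). Sgf29, at -0.55, lost its call under the common median and after quantile normalization. All 4 genes of the deubiquitinase module were called lower, with a median of -0.44 and 2 still called under the common median, and Atxn7 was at 5.24, 5.38 and 5.39 RPKM in ada2b ovaries, against 9.57, 9.23 and 9.68 RPKM in FRT ovaries. The largest SAGA part on the lists, the SPT and TAF modules, had 3 of 13 genes called higher and 6 lower, with a median of -0.27 that became -0.0007 under the common median, and Ada1-1 and Ada1-2, copies of a structural subunit, were called higher at 0.92 and 0.78, though such copies may share reads and each overlaps a gene on the opposite strand. In the ATAC complex, which holds Gcn5 with Ada2a in place of Ada2b, 5 of 10 genes were called lower and 2 higher, with D12 lowest at -1.41 and a median of -0.23 that turned to 0.02 under the common median. RNA polymerase II and Mediator genes had 28 of 42 called lower and 4 higher, and Integrator genes 11 of 12 called lower, or 18 of 42 and 5 of 12 lower under the common median.

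The 12 genes that rose most cut across these groups. Pepck1 led, followed by CG12129, CG13321, CG42857, CG16926, CG18628, the muscle gene Mlc2, Tsf1, CG34446, TpnC73F, CG42565 and CG5612. CG12129 was at 28.3, 26 and 31.0 RPKM in ada2b ovaries, against 0.151, 0.159 and 0.166 RPKM in FRT ovaries, where it rested on 26 reads in all (log2 fold change 4.66, standard error 0.08, adjusted p = 3.92e-06 in limma). It was on in every ada2b library and nearly absent from every FRT library, and overlaps oys on the opposite strand. CG18628 was at 180, 195 and 160 RPKM in ada2b ovaries, against 10.5, 12.7 and 10.5 RPKM in FRT ovaries, a log2 fold change of 3.87. Tsf1, the iron carrier transferrin, was at 46.1, 34.6 and 22.9 RPKM in ada2b ovaries, against 2.82, 0.712 and 1.43 RPKM in FRT ovaries. Of the 12, 8 had their highest ada2b value in replicate 1, the library that stood apart. CG34446 differed most among the ada2b libraries, at 69.1, 16.7 and 23.7 RPKM against 2.16, 1.61 and 0.943 RPKM in FRT ovaries. CG5612 and CG16926 overlap genes on the opposite strand and CG42565 overlaps genes on its own strand, so their reads are uncertain.

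These changes were then set against the rest of the series. The ada2b change minus the mean of the ataxin7 and nonstop changes, each relative to its own FRT control, was tested in 1 limma fit of all 18 libraries, and it passed the threshold for 5836 of the 7674 genes (76%). The libraries labelled ataxin7 did not show a lower level of Atxn7 (log2 fold change 0.63), while not, the gene mutated in nonstop ovaries, was at -3.06 there, so directions in the libraries labelled ataxin7 rest on the label alone. All 9 chorion genes differed, each with the lower change in ada2b ovaries, and the list's medians were -4.93 in ada2b, -0.44 in the libraries labelled ataxin7 and 0.40 in nonstop ovaries. For replication genes, 28 of 30 differed and all 28 were lower, with medians of -1.21, -0.03 and -0.07 in the same order. All 8 egg activation genes differed, each lower in ada2b. Of 20 muscle genes, 18 differed, 16 of them higher, and the medians were 2.27, 0.40 and 0.05. For the H/ACA list, 40 of 46 differed, all higher, with medians of 1.71, 0.28 and -0.07. Cytoplasmic ribosomal protein genes differed for 80 of 82, all higher, although their change in ada2b ovaries alone was small, since their median was -0.14 in the libraries labelled ataxin7 and -0.77 in nonstop ovaries. Levels were normalized within each experiment, so only changes, not levels, were compared.

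**Figure D5:**
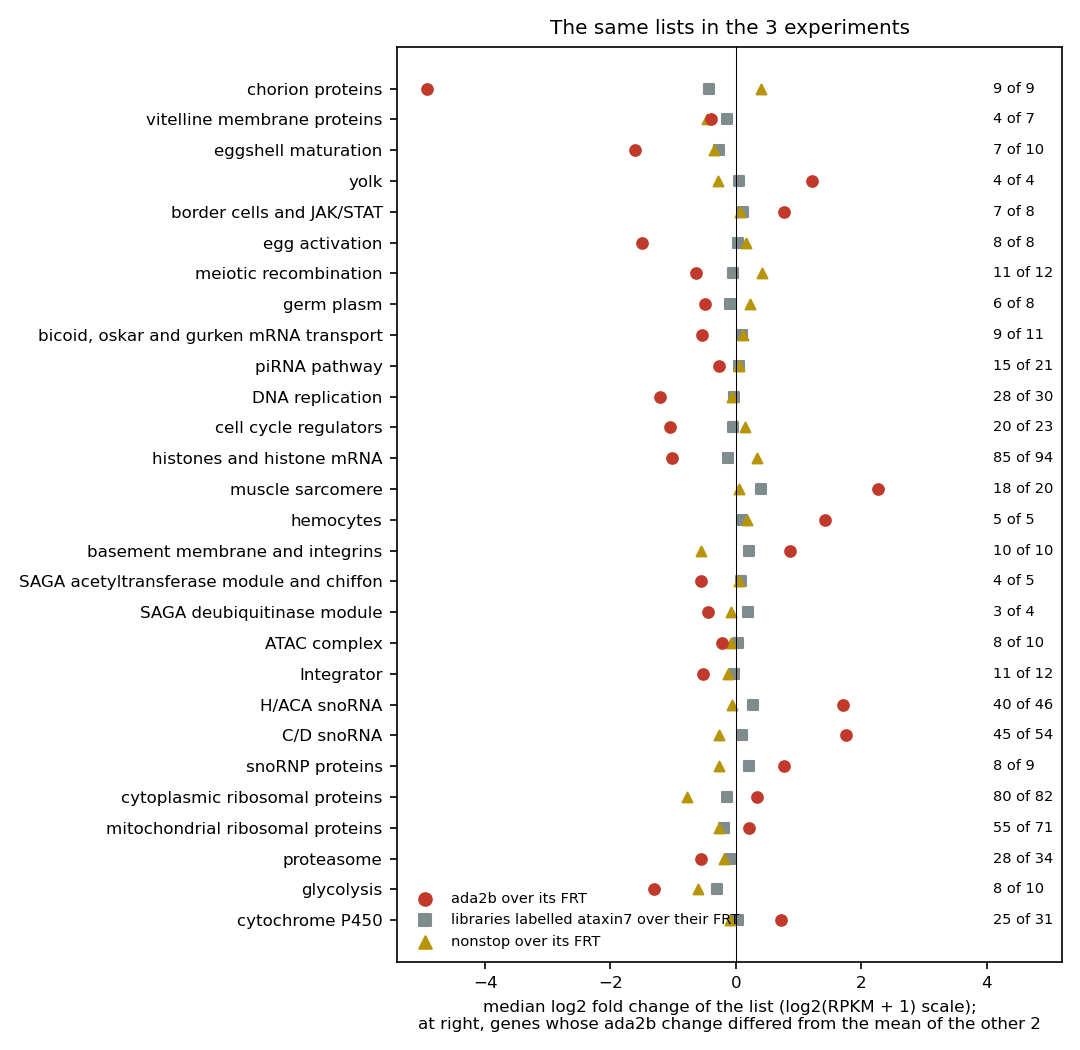
For each gene list, the x axis gives the median log2 fold change over its own FRT control in ada2b (red circles), in libraries labelled ataxin7 (grey squares) and in nonstop ovaries (yellow triangles), and the numbers at right count the genes whose ada2b change differed from the mean of the other experiments (limma, adjusted p under 0.05). Squares and triangles lie within 1 of 0 on the log2 scale for every list drawn, while ada2b medians reach -4.93 and 2.27.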

How the data were processed

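RPKM values were used as deposited: the authors had scaled the reads of each gene by its length and by a normalized library size. The submitters' processing notes name CASAVA 1.8.2, TopHat2 2.0.13, edgeR 3.14.0 and the dm3 build, and the strand setting of the counting is not given in the sources used here. For 100% of the 13903 genes above 0, values were whole multiples of 1 read (tolerance 0.001 reads). Symbols for 15002 of 15682 genes, and overlaps between genes, came from the BDGP6.54 annotation, and no coordinates are given because the builds differ. No sequences are shown.

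Groups came from the sample labels. Genes with a mean of at least 1 RPKM over the 6 libraries were tested on log2(RPKM + 1), a scale that understates changes of low genes, in limma 3.58.1 (R 4.3.3), using lmFit and trended eBayes, and called where the p adjusted by the Benjamini-Hochberg method was under 0.05. The difference from the other experiments was a contrast in a fit of 18 libraries. In simulated data of 7674 genes with 200 changed 2-fold, 95.5% of these were recovered, and false calls made up 2.051% of the 195 calls. The simulation gave every gene and library the same spread setting and held no outlying library. Its rates therefore do not carry over to the calls in the real libraries. Python 3.11.15 with pandas 2.3.3, numpy 2.4.6 and matplotlib 3.10.9 served for tables and plots.

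The members and lists were chosen with earlier results of these data known. The text names Ada2b, the 12 strongest rises and 12 strongest falls among called genes without overlap of the groups, and, per list, up to 3 such genes with the largest change and the 2 with the highest RPKM. Cp18, SERCA, Gcn5 and Ada3 were added after their values were seen. Alternatives were another pseudocount, other filters and scalings, eBayes without a trend, a replicate block, limma voom on the recovered reads, each library left out in turn, and the arm 3R left out. Chi-square values of the reads, per degree of freedom, were 26.1 or more for each replicate pair, so none was counted as a duplicate.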

Additional observations from a re-analysis of the deposited data

Results flagged for a closer look

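Each gene below was singled out because its change in ada2b ovaries differed from the mean change in the ataxin7 and nonstop experiments by a test of that difference in limma over 18 libraries. Since 76% of the 7674 tested genes passed that test, passing it sets none of them apart, and the values are given for their size, as a difference of log2 fold changes.

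Among eggshell genes the difference was -7.572 for Cp38, -6.695 for Cp36, -5.785 for Cp7Fc, -4.963 for Cp7Fb, -6.16 for yellow-g2 and -5.13 for yellow-g. The other genes that fell most in ada2b ovaries had differences of -6.335 for CG11381, -6.202 for Muc4B, -6.149 for CG4009, -6.011 for CG13114, -5.253 for CG31928 and -4.676 for Obp19c. For Ada2b itself the difference was -2.556.

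Among genes that rose most, the difference was 4.032 for Pepck1, 4.481 for Tsf1, and 3.345 and 3.316 for the muscle genes Mlc2 and TpnC73F. It was 4.512 for CG12129, 4.4 for CG13321, 4.219 for CG42565, 4.19 for CG18628, 4.13 for CG16926, 3.949 for CG42857, 3.8 for CG34446 and 3.389 for CG5612.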

How the results depend on the processing

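The count of called genes lay between 4389 and 5556 when 1 library was left out, with 1554 to 2150 higher and 2787 to 3406 lower, and the count that differed from the other experiments lay between 5604 and 5874. With a replicate block 5042 genes were called. The numbers do not pair the libraries, as the deviations of same-numbered libraries correlated at 0.098, -0.063 and 0.026. Under the common median 3071 genes were called higher and 2151 lower. Without a filter 6215 of 13146 genes were called, and limma voom on the recovered reads called 5249. Of 100 genes compared across the alternatives, 92 kept their direction and call in all of them. The log2 fold change of Vm26Aa turned to -0.14 after quantile normalization. The log2 fold change of Ada3 turned to 0.20 under the common median, 0.18 after quantile normalization and ranged from -0.094 to 0.025 when 1 library was left out (0.025 without ada2b replicate 1). The cause of these turns was not tested. Depth limits the genes of low level, and 1 library, ada2b replicate 1, was shallow and rich in mitochondrial reads.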

Other observations

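Detoxification genes changed in both directions. Of 31 tested genes on the cytochrome P450 list, 17 were called higher and 8 lower, beside 25.6% and 42.3% of all tested genes. An FRT mean below 1 RPKM let 12 of them through the filter, and of the other 19, 6 were called higher and 8 lower. The counts of 31, 19 and 8 include Cyp1, which is a cyclophilin gene and not a P450 (log2 fold change -0.36). Cyp6a13 was at 45.5, 32.6 and 41.1 RPKM in ada2b ovaries, against 3.50, 3.05 and 3.17 RPKM in FRT ovaries, and Cyp6a19 at 31.8, 43.3 and 39.8 RPKM in ada2b ovaries, against 204, 196 and 188 RPKM in FRT ovaries. Glutathione transferases had 9 of 24 called higher and 6 lower, with GstD1 at -1.39 on the log2 scale. With both means at 1 RPKM or more, 8 of 23 were called higher and 6 lower. UDP-glycosyltransferases had 5 of 11 called higher and 5 lower, but 3 of the 11 had an FRT mean below 1 RPKM. Of the other 8, 2 were called higher and 5 lower. In the heat shock list, the small heat shock gene Hsp26 was at 326, 437 and 628 RPKM in ada2b ovaries, against 1795, 1933 and 2138 RPKM in FRT ovaries, and Hsp27 fell by 2.10. Of the 20 tested genes on that list, 5 were called higher (13 without ada2b replicate 1) and 4 lower. With both means at 1 RPKM or more, 3 of 18 were called higher and 4 lower. The cell death gene rpr was at 14.8, 10.4 and 19.2 RPKM in ada2b ovaries, against 0.550, 3.29 and 2.24 RPKM in FRT ovaries, and 5 of 8 tested apoptosis genes were called higher and 1 lower.

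Among 12 tested odorant and taste protein genes, 6 were called higher and 2 lower, or 2 each among the 6 with both means at 1 RPKM or more, with Obp44a at 2.68. Genes encoded by the mitochondrial genome summed to 240750, 69358 and 98680 RPKM in ada2b libraries, against 59023, 76862 and 61593 RPKM in FRT libraries, with 5 of 23 called higher and none lower. RpL38 was at 6712, 1937 and 2802 RPKM in ada2b ovaries, against 1369, 1577 and 1134 RPKM in FRT ovaries, again highest in ada2b replicate 1, and its call was lost without the filter and without any 1 of the FRT libraries or ada2b replicate 3. Send1, a gene of the sperm storage organs, was at 7.34, 0 and 0.0551 RPKM in ada2b ovaries and listed at 0 in every FRT library, so its RNA was almost all in ada2b replicate 1. Of 39 tested long noncoding RNA genes, 16 were called higher and 9 lower, or 10 and 6 of the 30 with both means at 1 RPKM or more. lncRNA:CR43834 was at 0.127, 1.49 and 0.312 RPKM in ada2b ovaries, against 11.6, 10.9 and 10.3 RPKM in FRT ovaries.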
